A study of Mus musculus with 6 samples.

Results

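The cells described here are barcodes from tibialis anterior muscle, a muscle of the shin, taken 3 days after injury with cardiotoxin, that carried myogenic RNA but little Myog. They were chosen from measured counts. A barcode was taken when it held at least 500 UMIs (unique molecular identifiers, each standing for 1 captured transcript), at least 200 genes and at most 10% mitochondrial UMIs, at least 10 UMIs of Myod1, Cdh15 and Des together, at most 5 UMIs of Myog, and at most 1 UMI each of Ptprc, Pecam1 and Pdgfra, which mark leukocytes, endothelium and fibro-adipogenic cells. This gave 665 barcodes of the 17660 that passed the depth and mitochondrial limits on day 3, in a series of 68724 barcodes. Of these, 293 came from the ZT16 library (3.59% of 8172 barcodes, exact binomial 95% interval 3.19 to 4.01) and 372 from the ZT4 library (3.92% of 9488, interval 3.54 to 4.33). All intervals here cover counting error only.

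The series holds 6 droplet libraries of mononucleated cells from wild-type mice, made on days 0 (uninjured), 1 and 3 at ZT4 and ZT16, where zeitgeber time (ZT) counts hours from lights on. Cells of both hindlimbs were sorted by FACS with propidium iodide-positive dead cells left out, and the number of animals per library, their strain, age and sex are not given in the sources used here. Both day 3 groups carried a cardiotoxin injury and the wild-type genotype, and their labels differed in ZT. As every group was sampled in a single library, differences between groups have no replicate behind them and none was tested. The following sets of barcodes serve for comparison. The high Myog barcodes of the same day 3 libraries met the same limits but held more than 5 Myog UMIs (196 at ZT16 and 292 at ZT4). The remaining day 3 barcodes are mostly leukocytes. The day 0 Pax7 cells came from uninjured muscle by another rule, at least 1 UMI of Pax7 and at least 1 of Cdh15 or Myf5 with the same upper limits (963 at ZT16 and 815 at ZT4).

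Muscle stem cells rest beneath the basal lamina of the fibre and are held there by Pax7, Notch signalling and cell cycle inhibitors. After injury they enter the cell cycle and express the transcription factors Myf5 and Myod1. The progeny that withdraw from the cycle switch on Myog, which drives the genes of fusion and of the contractile apparatus. Low Myog with myogenic markers is therefore a profile that proliferating progenitors share with resting stem cells, and it does not by itself mark proliferation. The sections below describe what else the chosen barcodes carried.

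The barcodes were deep. The median was 33406 UMIs and 5154 genes at ZT16 and 40641.5 UMIs and 5403 genes at ZT4, against a median of 11266.5 and 11310.5 UMIs over all kept barcodes of these libraries. Their summed counts, on which the levels below rest, were 9176478 UMIs at ZT16 and 13168598 at ZT4, in libraries of 109537133 and 132221721 UMIs. The libraries shared 24 barcodes, and none of the 665 was shared between them.

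The label was checked against its markers. Levels are given as CPM, the UMIs of a gene per 1000000 UMIs, of the summed UMIs of a set of barcodes, and are compared between sets for 1 gene and not between genes. The 12 markers of the myogenic list summed to 2160 CPM at ZT16 and 1902 CPM at ZT4, against 89.4 and 132 CPM in the remaining day 3 barcodes. Of these the rule used Myod1, Cdh15 and Des, at 252, 266 and 793 CPM at ZT16 and 164, 231 and 714 CPM at ZT4. The choice of barcodes thus fixed much of this gap, which is a description and no check of the label. Pax7, which the rule did not use, stood at 84.2 CPM at ZT16 and 69.0 CPM at ZT4, and was found in 63.1% and 60.5% of the barcodes. In barcodes with at least 2 UMIs of Ptprc, which should lack Pax7, the share was 0.106% at ZT16 and 0.186% at ZT4, at median depths of 11623 and 11599.5 UMIs. After each barcode was thinned to 5000 UMIs, which left out 52 and 47 shallower barcodes, Pax7 was found in 30.7% of the low Myog barcodes at ZT16 and 28.6% at ZT4, against 0.0191% and 0.0501% of those with Ptprc.

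Markers of other cells were low but not absent. The 6 neutrophil markers summed to 0.436 CPM at ZT16 and 1.29 CPM at ZT4, and the 6 T and NK markers to 1.09 and 0.835 CPM. Of these, 4 neutrophil markers at ZT16 and 2 at ZT4 had 0 UMIs, as did 0 and 2 T and NK markers, 2 and 3 of the 7 endothelial markers, and none of the macrophage markers. The 7 endothelial markers summed to 5.88 and 6.38 CPM, against 77.1 and 81.0 CPM in the remaining barcodes. Pecam1 is among these 7 and was limited by the rule, so its low level follows from the choice of barcodes. The 8 mural markers, some of which muscle cells share, summed to 186 and 136 CPM, against 159 and 147 CPM. The 11 macrophage markers summed to 476 CPM at ZT16 and 420 CPM at ZT4, against 50716 and 50441 CPM in the remaining barcodes. Lyz2, a macrophage and neutrophil lysozyme, stood at 77.4 and 81.0 CPM, against 10078 and 11313 CPM in the remaining barcodes. The part of free RNA from leukocytes in these values was not tested.

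**Figure D1:**
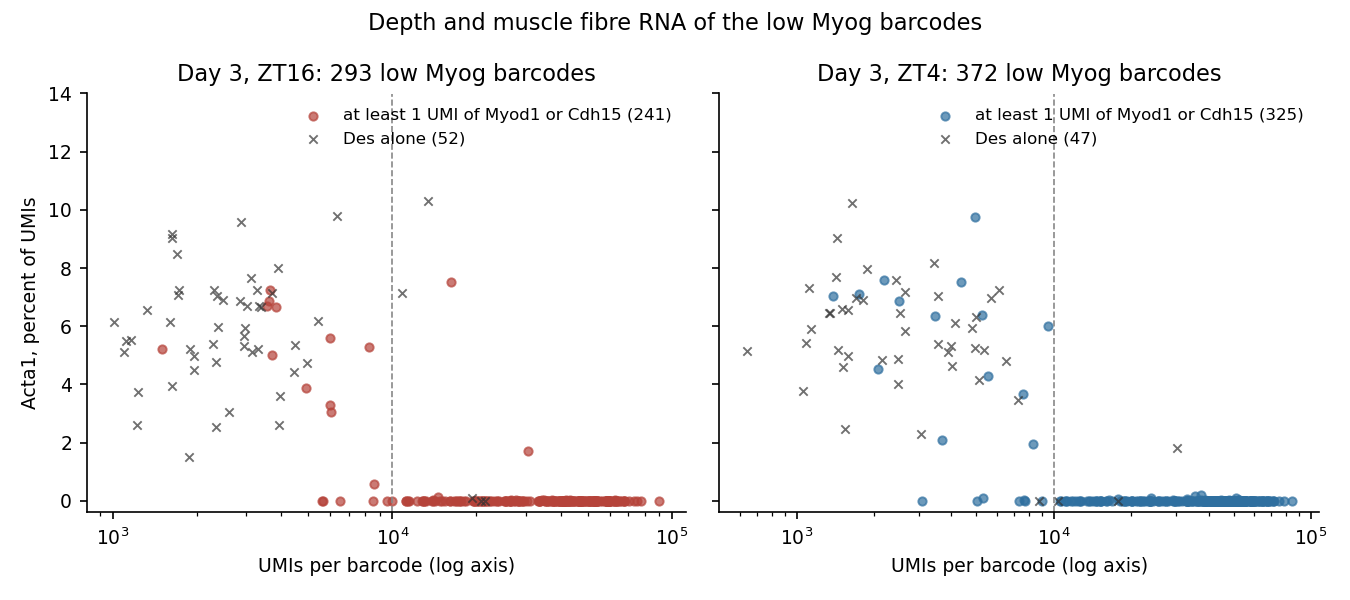
UMIs per barcode (log axis) and the percent of them from Acta1 for each low Myog barcode, with ZT16 on the left and ZT4 on the right. Circles carry at least 1 UMI of Myod1 or Cdh15 (241 and 325 barcodes), crosses carry Des alone (52 and 47), and the dashed line marks 10000 UMIs. Most barcodes lie at high depth near 0% Acta1, and most crosses lie below the line with Acta1 above 2%.

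The 665 barcodes differed in depth and in fibre RNA, as the plot of depth against Acta1 shows. Acta1 encodes skeletal muscle actin, a transcript of mature fibres. A group of 52 barcodes at ZT16 and 47 at ZT4 passed through Des alone, the muscle intermediate filament gene, with no UMI of Myod1 or Cdh15. They held a median of 2733 and 2534 UMIs, a median mitochondrial share of 0.0354% and 0.0999%, and 45777 CPM of Acta1 at ZT16 and 40108 CPM at ZT4. Acta1 made up more than 2% of the UMIs in 48 and 43 of them. Of the 3 markers of the label these barcodes carried Des only, and they held 2.29% of the summed UMIs at ZT16 and 1.45% at ZT4.

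Most of the UMIs came from deep barcodes. With at least 10000 UMIs and at least 1 UMI of Myod1 or Cdh15 there were 223 barcodes at ZT16 and 304 at ZT4, with medians of 40974 and 44807 UMIs, and these held 96.6% and 97.7% of the summed UMIs. Acta1 was at 218 CPM at ZT16 and 31.2 CPM at ZT4 in them. This limit was chosen after the data were seen, and results that change when it is applied are given both ways. Low over high Myog ratios of the deep barcodes are taken against high Myog barcodes held to the same limit (185 at ZT16 and 283 at ZT4). A further 18 and 21 low Myog barcodes carried Myod1 or Cdh15 at lower depth. Acta1 was at 25241 CPM at ZT16 and 31115 CPM at ZT4 in these and above 2% of the UMIs in 11 and 13 of them, so barcodes rich in Acta1 were found with Myod1 or Cdh15 as well as with Des alone.

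Barcodes on either side of the limits of the rule were alike in some genes and not in others. Barcodes with 4 or 5 Myog UMIs, just inside (13 at ZT16 and 22 at ZT4), held Pax7 at 24.9 and 34.1 CPM and Myod1 at 285 and 322 CPM. Those with 6 or 7, just outside (10 and 13), held Pax7 at 18.5 and 23.2 CPM and Myod1 at 306 and 353 CPM. Mymk was at 139 and 61.2 CPM inside and at 43.2 and 83.9 CPM outside. At the marker limit, barcodes with a marker sum of 10 to 12 (29 and 33) had a median of 2967 and 6498 UMIs, and those with 7 to 9 (51 and 59) a median of 1831 and 2309 UMIs. Acta1 was at 13421 and 7026 CPM inside and 9936 and 10247 CPM outside, so fibre RNA was present on both sides of this limit. Other genes at this limit differed between the sides and the libraries, with Myf5 at 131 and 107 CPM inside and 49.4 and 184 CPM outside, Mki67 at 137 and 49.96 CPM inside and 45.6 and 28.0 CPM outside, and Lyz2 at 465 and 132 CPM inside and 95.02 and 240.2 CPM outside.

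Most low Myog barcodes had no UMI of Myog. There were 209 with 0 UMIs at ZT16 and 268 at ZT4, 60 and 74 with 1 to 2, and 24 and 30 with 3 to 5. Their median depths, in this order, were 22299, 44632 and 51385 UMIs at ZT16 and 36600.5, 46874.5 and 49636.5 UMIs at ZT4. The bins thus also differ in depth, and Myog can be missed in shallow barcodes. Genes of the uncommitted state were highest at 0 Myog UMIs, and genes of differentiation were highest above 10 Myog UMIs, in both libraries. Since Myog defined the bins and shares its cells with every other gene, these levels are a description.

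**Figure D2:**
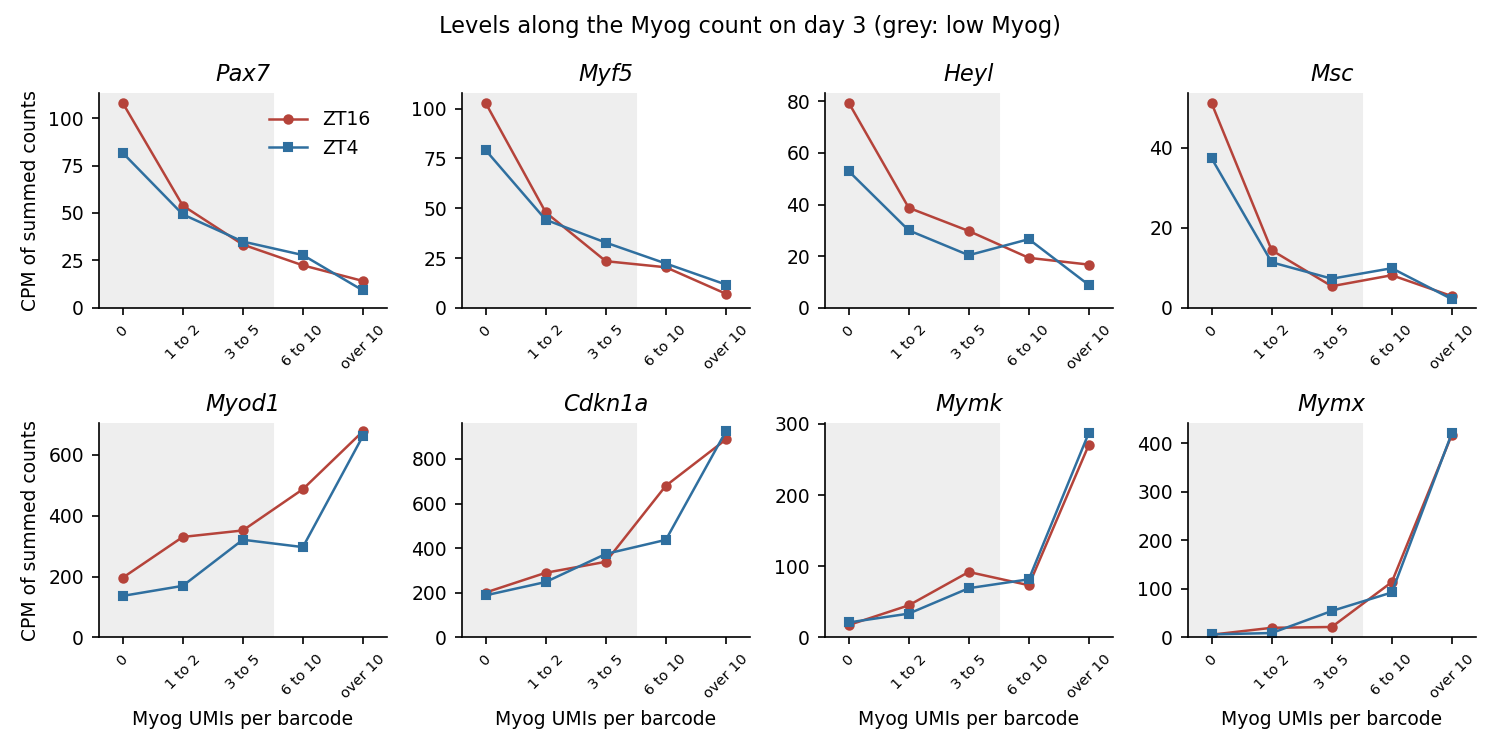
CPM of the summed UMIs (vertical axis, from 0) of 8 genes in day 3 barcodes binned by their Myog UMIs (horizontal axis), with ZT16 as circles and ZT4 as squares. The grey area holds the low Myog barcodes. Pax7, Myf5, Heyl and Msc are highest at 0 Myog UMIs, and Myod1, Cdkn1a, Mymk and Mymx are highest above 10.

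Pax7, the transcription factor of muscle stem cells, was at 108, 53.9 and 33.4 CPM with 0, 1 to 2 and 3 to 5 Myog UMIs at ZT16, and at 81.7, 49.3 and 35.0 CPM at ZT4. It was at 22.4 and 14.2 CPM with 6 to 10 and more than 10 Myog UMIs at ZT16, and at 27.8 and 9.19 CPM at ZT4. Myf5, the early myogenic regulator, followed the same order along these bins, with 103 CPM in the lowest and 7.09 CPM in the highest at ZT16, and 79.1 and 11.7 CPM at ZT4. Both genes were thus highest where no Myog UMI was found. Msc (musculin), a repressor of myogenic bHLH factors, was at 51.0, 14.4 and 5.41 CPM inside the low Myog range at ZT16 and at 37.3, 11.4 and 7.28 CPM at ZT4.

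Myod1, the myogenic determination factor and a gene of the rule, was at 196, 330 and 352 CPM inside the range at ZT16 and 677 CPM above 10 Myog UMIs. At ZT4 it was at 137, 170 and 321 CPM inside the range and 662 CPM above 10. Cdkn1a, which encodes the cell cycle inhibitor p21, was at 201, 290 and 339 CPM inside the range at ZT16 and at 189, 249 and 374 CPM at ZT4, and reached 887 and 924 CPM above 10 Myog UMIs. The fusion gene Mymk (myomaker) was at 17.4, 45.1 and 92.0 CPM inside the range at ZT16 and at 21.1, 33.5 and 69.2 CPM at ZT4, against 271 and 288 CPM above 10. Mymx (myomerger), its partner in fusion, was at 5.75, 19.97 and 21.6 CPM inside the range at ZT16 and 6.37, 9.16 and 54.6 CPM at ZT4, against 418 and 421 CPM above 10. Mymk and Mymx RNA was therefore detectable before the Myog limit was reached. Cdkn1c, which encodes the inhibitor p57, had no such order inside the range, at 251, 188 and 242 CPM at ZT16 and 115, 61.6 and 146 CPM at ZT4, and was at 1730 and 1642 CPM above 10.

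Most low Myog barcodes carried mitotic RNA. At least 3 UMIs of the 24 genes of the G2M list, which was taken as cycling, were found in 210 of 293 barcodes at ZT16 (71.7%, interval 66.1 to 76.8) and in 286 of 372 at ZT4 (76.9%, interval 72.3 to 81.1). Of the barcodes with Ptprc, 17.9% at ZT16 and 22.4% at ZT4 passed this count. Thinned to 5000 UMIs, the share was 71.8% and 79.7% in the low Myog barcodes and 8.19% and 11.3% in those with Ptprc. Thinning left out 52 and 47 shallower low Myog barcodes, so the thinned and unthinned shares are not of the same barcodes. The barcodes short of the count were mostly the shallow ones. Of the deep barcodes, 91.5% (interval 87.0 to 94.8) at ZT16 and 91.4% (interval 87.7 to 94.3) at ZT4 were cycling, against 5.77% and 10.6% of those that passed through Des alone.

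The share depended on how it was counted between low and high Myog. As deposited, 92.3% of the high Myog barcodes at ZT16 and 94.2% at ZT4 were cycling, more than of the low Myog barcodes, whereas at 5000 UMIs the shares were 74.6% and 76.9%. At 5000 UMIs 3 and 2 high Myog barcodes were left out, against 52 and 47 low Myog barcodes, so depth is not all that changed. The levels had another order. Mki67, the proliferation antigen Ki-67, was at 165 CPM at ZT16 and 134 CPM at ZT4 in low Myog barcodes, against 80.9 and 62.4 CPM in high Myog barcodes. Along the Myog bins, low to high, it stood at 161, 178, 155, 157 and 71.8 CPM at ZT16 and at 136, 145, 99.1, 96.5 and 57.8 CPM at ZT4. Phase calls were not made.

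Low and high Myog barcodes were set side by side within each library, which places the low Myog barcodes against their differentiating neighbours. A gene with at least 30 UMIs over both sets in each library counted as measured, and one at least 1.5-fold apart in the same direction in both libraries as higher or lower. Of 10939 measured genes, 1194 (10.9%) were higher and 550 (5.03%) lower in low Myog barcodes, and the median over all genes was 0.07 at ZT16 and 0.06 at ZT4 on the log2 scale. The rule used Myog in this contrast, so the counts below are descriptions set beside these shares and nothing is read from them. Log2 ratios add 0.5 UMI to each count, and brackets hold exact 95% intervals.

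**Figure D3:**
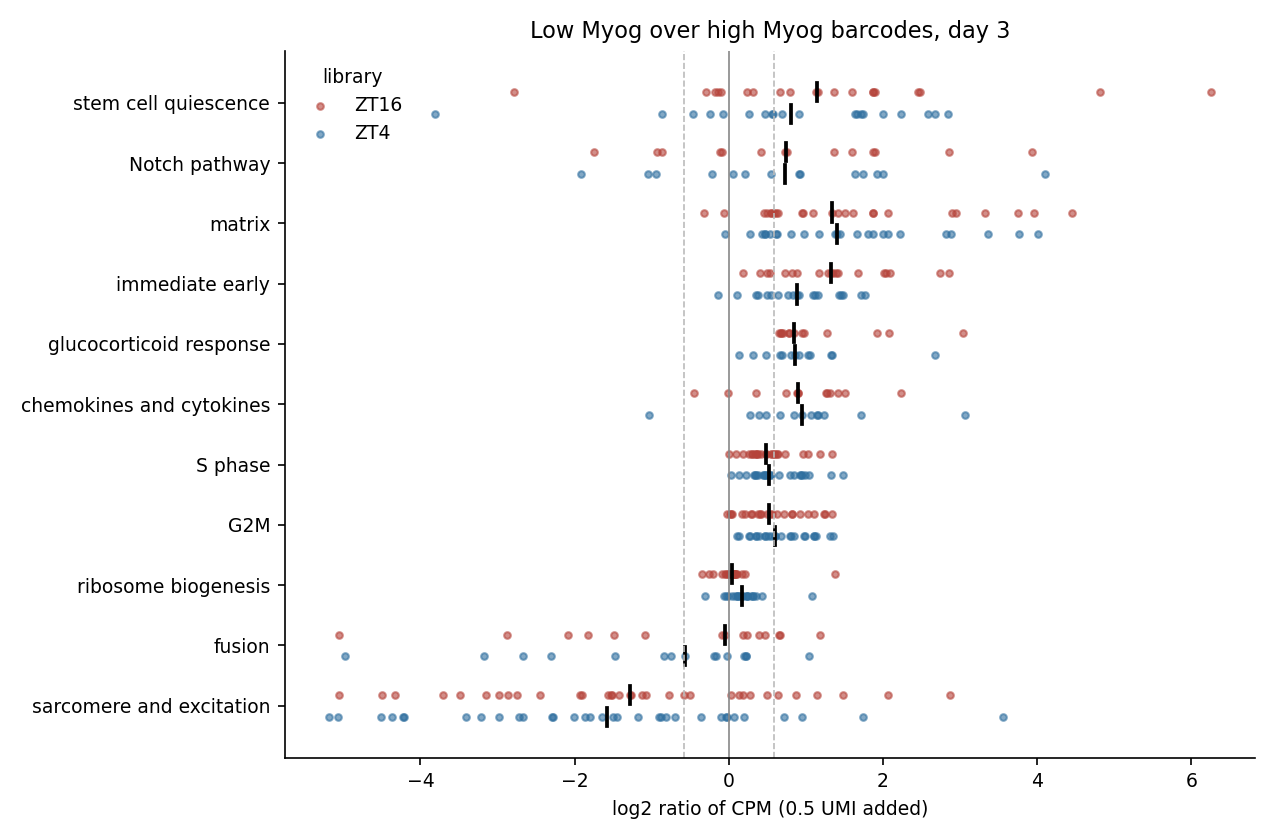
Log2 ratio of CPM (horizontal axis), low Myog over high Myog barcodes, for each measured gene of 11 lists (rows), with ZT16 above ZT4 in each row. Black bars are list medians and dashed lines mark 1.5-fold. Quiescence, matrix and immediate early genes lie mostly to the right, and sarcomere genes mostly to the left.

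Stem cell genes stood higher in low Myog barcodes. Of 20 measured genes of the stem cell quiescence list, 11 were higher and 1, Cdkn1c, lower, with medians of 1.14 at ZT16 and 0.80 at ZT4. Pax7 was at 84.2 CPM at ZT16 and 69.0 CPM at ZT4 in low Myog barcodes, against 15.1 and 11.4 CPM in high Myog barcodes, a log2 ratio of 2.48 and 2.59. Myf5 was at 78.2 and 65.9 CPM in low Myog barcodes, against 8.52 and 13.0 CPM, a log2 ratio of 3.19 [2.86, 3.56] and 2.34 [2.11, 2.59]. Msc was at 35.5 and 27.9 CPM, against 3.49 and 3.12 CPM, a log2 ratio of 3.33 and 3.15. Not every stem cell gene did so. Spry1, an inhibitor of growth factor signalling that holds stem cells at rest, was at 31.2 and 26.0 CPM, against 33.5 and 47.5 CPM in high Myog barcodes, with a log2 ratio of -0.10 at ZT16 and -0.87 at ZT4. Id3, an inhibitor of bHLH factors, was at 740 and 601 CPM, against 502 and 446 CPM, short of 1.5-fold in both libraries.

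Genes of the Notch pathway did not all go the same way. Notch receptors on one cell are activated by Delta or Jagged ligands on a neighbour, and several Hes and Hey genes are its targets. Of 14 measured genes, 7 were higher and 3 lower in low Myog barcodes, with medians of 0.75 and 0.73. Among the targets, Heyl was at 62.3 CPM at ZT16 and 44.0 CPM at ZT4 in low Myog barcodes, against 17.0 and 11.0 CPM in high Myog barcodes, a log2 ratio of 1.87 and 2.0. Hes1 was at 146 and 129 CPM, against 56.8 and 68.6 CPM, and Hey1 at 19.3 and 18.5 CPM, against 6.33 and 5.49 CPM. Nrarp, a target that feeds back on the pathway, was at 9.15 and 10.8 CPM, against 0.546 and 0.594 CPM, a log2 ratio of 3.94 and 4.10. Heyl, Hes1, Hey1 and Nrarp were thus higher with low Myog in both libraries. The receptor Notch3 was at 53.6 and 28.2 CPM, against 14.3 and 9.05 CPM, and the receptor Notch2 at 16.9 and 18.6 CPM, against 9.94 and 9.79 CPM. The ligands went opposite ways. Dll1 was lower in low Myog barcodes, at 19.4 and 16.3 CPM, against 65.5 and 61.2 CPM in high Myog barcodes, a log2 ratio of -1.75 and -1.91. Jag1 was higher, at 5.88 and 3.49 CPM, against 0.764 and 0.890 CPM. Rbpj, the DNA-binding partner of Notch, and Hes6, an inhibitor of Hes1, were lower, Rbpj at 58.6 and 40.7 CPM, against 106 and 84.2 CPM, and Hes6 at 117 and 113 CPM, against 223 and 216 CPM.

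Regulators of the cell cycle went both ways, with 5 of 24 genes of the cell cycle control list higher and 5 lower in low Myog barcodes. Cdkn1a was at 242 CPM at ZT16 and 223 CPM at ZT4, against 865 and 865 CPM in high Myog barcodes, a log2 ratio of -1.84 and -1.96. Cdkn1c was at 233 and 105 CPM, against 1600.5 and 1481 CPM, a log2 ratio of -2.78 and -3.81. Rb1, the retinoblastoma protein, was at 18.5 and 13.9 CPM, against 39.1 and 39.8 CPM. Cdkn1b, which encodes the inhibitor p27, was among those higher, at 34.3 and 30.9 CPM, against 15.4 and 19.1 CPM. Of the 24 genes of the S phase list 8 were higher and 0 lower (medians 0.49 and 0.52; 5 higher with TMM scaling, the trimmed mean of M values), and of the 24 of the G2M list 10 were higher and 0 lower (medians 0.52 and 0.60). The licensing genes Cdc6 (23.6 and 20.8 CPM, against 9.28 and 7.42 CPM) and Cdt1 (38.7 and 34.3 CPM, against 17.0 and 13.7 CPM) were among those higher. The linker histone gene Hist1h1b was at 314 and 339 CPM, against 73.7 and 80.0 CPM, a log2 ratio of 2.09 and 2.08.

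Matrix, signalling and stress lists also stood higher in low Myog barcodes. Of 25 measured matrix genes 17 were higher and 0 lower, with medians of 1.33 and 1.41. The collagen VI genes were among them, Col6a1 at 58.7 CPM at ZT16 and 41.1 CPM at ZT4, against 2.62 and 2.52 CPM in high Myog barcodes, a log2 ratio of 4.46 and 4.01, and Col6a2 at 28.6 and 17.6 CPM, against 2.07 and 1.26 CPM. Timp3, an inhibitor of metalloproteinases, was at 31.5 and 11.0 CPM, against 1.97 and 1.04 CPM. Matrix genes are also the main products of fibro-adipogenic cells, whose 7 markers summed to 104 CPM at ZT16 and 95.5 CPM at ZT4 in low Myog barcodes and 1709 and 1927 CPM in the remaining barcodes. Pdgfra is among these 7 and was limited by the rule. The part of fibro-adipogenic cells in the matrix levels was not tested.

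Of 19 immediate early genes 12 were higher and 0 lower, with medians of 1.33 at ZT16 and 0.89 at ZT4. Fos, a subunit of the AP-1 factor, was at 533 and 424 CPM, against 200 and 199 CPM in high Myog barcodes, and Socs3, a feedback inhibitor of cytokine signalling, at 97.9 and 80.0 CPM, against 14.6 and 23.4 CPM. Of 13 glucocorticoid response genes 10 were higher and 0 lower (medians 0.85 and 0.85). They included Ddit4, an inhibitor of mTOR complex signalling, at 49.0 and 42.4 CPM, against 5.90 and 6.6 CPM, and Klf9 at 42.7 and 20.3 CPM, against 10.0 and 8.09 CPM. Of 13 chemokines and cytokines 7 were higher and 0 lower (medians 0.90 and 0.95), among them the neutrophil attractant Cxcl1 at 26.9 and 23.2 CPM, against 5.68 and 7.05 CPM, and the macrophage growth factor Csf1 at 31.3 and 21.2 CPM, against 10.9 and 10.1 CPM. Among growth factor receptors, Egfr was higher, at 35.0 and 28.2 CPM, against 9.72 and 8.83 CPM, and Erbb3 lower, at 2.18 and 1.67 CPM, against 21.7 and 16.6 CPM. Genes of ribosome biogenesis (1 higher and 0 lower of 21), oxidative phosphorylation (3 and 0 of 28) and glycolysis (4 and 0 of 20) mostly differed by less than 1.5-fold.

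Contractile genes differed between the deep and the other low Myog barcodes. Of 34 measured genes of the sarcomere and excitation list 4 were higher and 21 lower, with medians of -1.28 at ZT16 and -1.58 at ZT4, and among the deep barcodes 0 were higher and 29 of 32 lower, with medians of -1.84 and -2.37. Genes of the developing muscle were lower over all low Myog barcodes. Myh3, embryonic myosin, was at 5.12 CPM at ZT16 and 3.49 CPM at ZT4 in low Myog barcodes, against 172 and 119 CPM in high Myog barcodes. Tnnt2, the troponin T of embryonic muscle and heart, was at 34.1 and 20.7 CPM, against 382 and 383 CPM, a log2 ratio of -3.48 and -4.21. Actc1, cardiac actin, was at 21.8 and 10.3 CPM, against 285 and 194 CPM. Tnni1, slow troponin I, was at 13.9 and 5.77 CPM, against 125 and 120 CPM, and Mybph, a myosin-binding protein, at 3.16 and 2.20 CPM, against 64.4 and 51.2 CPM. The genes with the firmest lower values also included Smim5, Casz1, Fndc5 and Lmod3, of which Lmod3, a nucleator of actin filaments, was at 9.81 and 6.91 CPM, against 77.1 and 71.8 CPM. In the 70 and 68 low Myog barcodes that were not deep these genes were not uniformly low. Actc1 was at 285 and 411 CPM, Mybph at 63.3 and 73.6 CPM and Lmod3 at 117 and 130 CPM there, at or above the high Myog level except for Mybph at ZT16, whereas Myh3 was at 28.5 and 36.8 CPM and Tnnt2 at 136 and 204 CPM, on 9 to 123 UMIs a gene and library.

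Genes of the mature fibre divided. Of 9 measured fibre markers 4 were higher over all low Myog barcodes, 0 lower and 5 neither, and in the deep barcodes 0 of 7 were higher and 5 lower. Among those neither higher nor lower, Atp2a1, the calcium pump of fast fibres, was at 68.5 CPM at ZT16 and 36.1 CPM at ZT4, against 88.9 and 69.6 CPM, and Mylpf, a fast myosin light chain, at 1206 and 577 CPM, against 1096 and 1059 CPM. Tcap (titin-cap) was at 166 CPM at ZT16 and 84.1 CPM at ZT4 in low Myog barcodes, against 2.40 and 1.19 CPM in high Myog barcodes. Among the deep barcodes Tcap was at 15.9 and 1.86 CPM, against 1.76 and 0.373 CPM in deep high Myog barcodes. The summed Tcap level thus stayed higher with low Myog under the deep limit, but how many deep barcodes carried it was not counted. Of the Acta1 UMIs of the deep barcodes at ZT16, 90.4% were in 2 barcodes. Mb (myoglobin) was at 106 and 104 CPM, against 12.7 and 1.86 CPM over all. In the deep barcodes Mb was at 7.79 and 1.79 CPM, against 9.79 and 1.49 CPM in deep high Myog barcodes, a log2 ratio of -0.33 and 0.26. Ckm, muscle creatine kinase, was at 440 and 280 CPM, against 60.3 and 23.7 CPM over all. In the deep barcodes Ckm was at 54.5 and 6.29 CPM, against 49.4 and 22.1 CPM in deep high Myog barcodes, a log2 ratio of 0.14 and -1.81. Myoz1, Pvalb, Ankrd23 and Fabp3 were likewise among the 12 genes with the firmest higher values, and each was lower in the deep barcodes than over all low Myog barcodes. Myoz1, a protein of the Z-disc, was at 50.8 CPM at ZT16 and 25.5 CPM at ZT4 over all and at 5.76 and 0.622 CPM in the deep barcodes. When the same naming rule was applied to the deep barcodes, its 12 genes were Msc, Ddit4, Pax7, Capn6, Deptor, Myf5, Hist1h1b, Creb3l1, Afdn, Hist1h2ap, Itm2a and Heyl. The 10 fibre markers together summed to 4051 CPM at ZT16 and 2275 CPM at ZT4 in low Myog barcodes, against 2515 and 2317 CPM in high Myog barcodes, and 512 and 431 CPM in the remaining barcodes.

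The myoblast fusion genes Mymk and Mymx were lower with low Myog but not at 0, and most other fusion genes were not lower. Of 15 measured fusion genes 6 were lower and 1 higher, with medians of -0.04 at ZT16 and -0.57 at ZT4. Mymk was at 34.0 and 29.1 CPM in low Myog barcodes, against 250 and 263 CPM in high Myog barcodes, a log2 ratio of -2.87 and -3.17. Mymx was at 11.6 and 12.1 CPM, against 385 and 382 CPM, a log2 ratio of -5.05 and -4.98. Kirrel, a cell adhesion molecule of the immunoglobulin family, was the higher one, at 19.8 and 17.5 CPM, against 8.74 and 8.46 CPM. The acetylcholine receptor subunits, which Myod1 and Myog are known to drive, were nearer to the high Myog level than Mymk and Mymx. Chrna1 was at 321 and 363 CPM, against 548 and 638 CPM, and the embryonic subunit Chrng at 24.6 and 16.7 CPM, against 70.4 and 58.0 CPM.

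Promoters of 5 of the genes lower with low Myog are shown here because each holds an E-box of the kind that Myod1 and Myog bind. The only motif searched was CAGCTG, which reads the same on both strands. The windows are RefSeq sequences on GRCm38.p6, from 250 bases before to 50 after an annotated start, printed on the strand of the gene, with the motif in capitals.
Mybph, chr1:134193198-134193497, plus strand: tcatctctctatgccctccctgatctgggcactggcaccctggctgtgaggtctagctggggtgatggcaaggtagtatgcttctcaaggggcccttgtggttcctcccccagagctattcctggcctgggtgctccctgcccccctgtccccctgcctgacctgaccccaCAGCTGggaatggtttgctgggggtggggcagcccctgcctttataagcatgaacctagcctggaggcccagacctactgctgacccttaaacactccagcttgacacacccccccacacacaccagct
Tnnt2, chr1:135836084-135836383, plus strand, the first of 2 starts: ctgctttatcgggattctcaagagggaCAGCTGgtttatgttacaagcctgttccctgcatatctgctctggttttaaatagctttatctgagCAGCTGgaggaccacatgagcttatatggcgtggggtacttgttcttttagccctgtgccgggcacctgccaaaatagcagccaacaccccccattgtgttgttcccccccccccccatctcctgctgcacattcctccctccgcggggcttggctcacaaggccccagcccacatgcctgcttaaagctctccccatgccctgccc
Tnni1, chr1:135799171-135799470, plus strand, the first of 2 starts: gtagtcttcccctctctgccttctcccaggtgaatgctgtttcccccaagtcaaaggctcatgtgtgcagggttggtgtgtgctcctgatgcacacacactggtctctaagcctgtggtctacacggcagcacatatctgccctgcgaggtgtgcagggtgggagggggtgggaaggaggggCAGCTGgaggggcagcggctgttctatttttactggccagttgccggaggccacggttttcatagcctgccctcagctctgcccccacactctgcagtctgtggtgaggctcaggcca
Chrng, chr1:87205561-87205860, plus strand: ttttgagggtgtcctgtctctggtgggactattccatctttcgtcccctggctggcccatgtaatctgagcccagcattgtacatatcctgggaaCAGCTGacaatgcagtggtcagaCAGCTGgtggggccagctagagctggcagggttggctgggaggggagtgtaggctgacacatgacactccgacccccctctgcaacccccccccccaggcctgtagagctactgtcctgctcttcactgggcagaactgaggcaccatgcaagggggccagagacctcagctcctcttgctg
Chrna1, chr2:73580289-73580588, minus strand: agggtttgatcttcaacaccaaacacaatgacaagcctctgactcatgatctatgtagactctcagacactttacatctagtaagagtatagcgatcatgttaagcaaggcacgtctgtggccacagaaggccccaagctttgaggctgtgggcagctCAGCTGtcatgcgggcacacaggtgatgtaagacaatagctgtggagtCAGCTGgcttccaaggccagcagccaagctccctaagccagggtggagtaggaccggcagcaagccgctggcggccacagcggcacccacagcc
The motif begins at -79 from the start in Mybph, at -223 and -157 in Tnnt2, at -68 in Tnni1, at -155 and -132 in Chrng and at -92 and -44 in Chrna1.

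The motif was more frequent among genes lower with low Myog than over all genes. Of all 32851 windows, 5355 (16.3%) held it. Of the measured genes with a window, 17.6% of 8658 had it in at least 1 window. The share was 120 of 408 (29.4%) among those lower with low Myog, 203 of 903 (22.5%) among those higher and 1204 of 7347 (16.4%) among the rest. In the sarcomere and excitation list 12 of 27 matched genes (44.4%) held it, in the Notch pathway list, which has more higher than lower genes, 4 of 11 (36.4%), in the fusion list 2 of 9, in the S phase list 3 of 19, in the matrix list 2 of 19 and in the G2M list 2 of 21. Of the 12 named lower genes 7 had a window and 3 of these held the motif. A match is a description of the letters and not of binding.

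The low Myog barcodes differed among themselves in Pax7 and Myod1, and this division was made on measured counts. Both genes were found in 118 barcodes at ZT16 and 117 at ZT4 (median 44442.5 and 48405 UMIs), Pax7 without Myod1 in 67 and 108 (28800 and 37261 UMIs), Myod1 without Pax7 in 48 and 82 (39590.5 and 46211 UMIs), and neither in 60 and 65. As each gene can be missed in shallow barcodes, the medians stand beside the counts. Heyl was at 156 CPM at ZT16 and 101 CPM at ZT4 in barcodes with Pax7 alone, at 37.9 and 26.0 CPM with both, and at 17.4 and 6.28 CPM with Myod1 alone. Msc followed the same order, at 94.7 and 64.8 CPM, 19.3 and 16 CPM, and 8.09 and 7.85 CPM. Cdkn1c was at 544 and 225 CPM with Pax7 alone, at 129 and 64.3 CPM with both, and at 162 and 43.7 CPM with Myod1 alone. Inside the low Myog range, p57 RNA was thus highest in Pax7 barcodes without Myod1, although over the whole myogenic range it was highest with high Myog. Cdkn1a had the opposite pattern, at 91.3 and 119 CPM with Pax7 alone, 297 and 263 CPM with both, and 308 and 298 CPM with Myod1 alone. Hmga2, a chromatin protein of proliferating progenitors, was at 44.0 and 38.2 CPM with Pax7 alone, 81.9 and 71.0 CPM with both, and 63.5 and 65.7 CPM with Myod1 alone. Mki67 varied less, at 151 and 130 CPM, 185 and 153 CPM, and 148 and 118 CPM.

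The ZT16 and ZT4 libraries were compared to describe the low Myog barcodes at 2 times of day, as far as 1 library each allows. Of 11314 measured genes 1250 (11.0%) were at least 1.5-fold higher and 187 (1.65%) lower at ZT16, and the median over all genes was 0.11 on the log2 scale. TMM scaling shifts the ratios by 0.122, after which 775 genes were higher and 320 lower. Time of day, library and animals cannot be told apart, and values of other sets of barcodes are given beside some of the genes. Where given, they show whether those sets had a like difference, and the difference between sets was not tested. A gene without them, or with day 0 values only such as Nr1d1, is not shown to be particular to the low Myog barcodes of day 3.

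**Figure D4:**
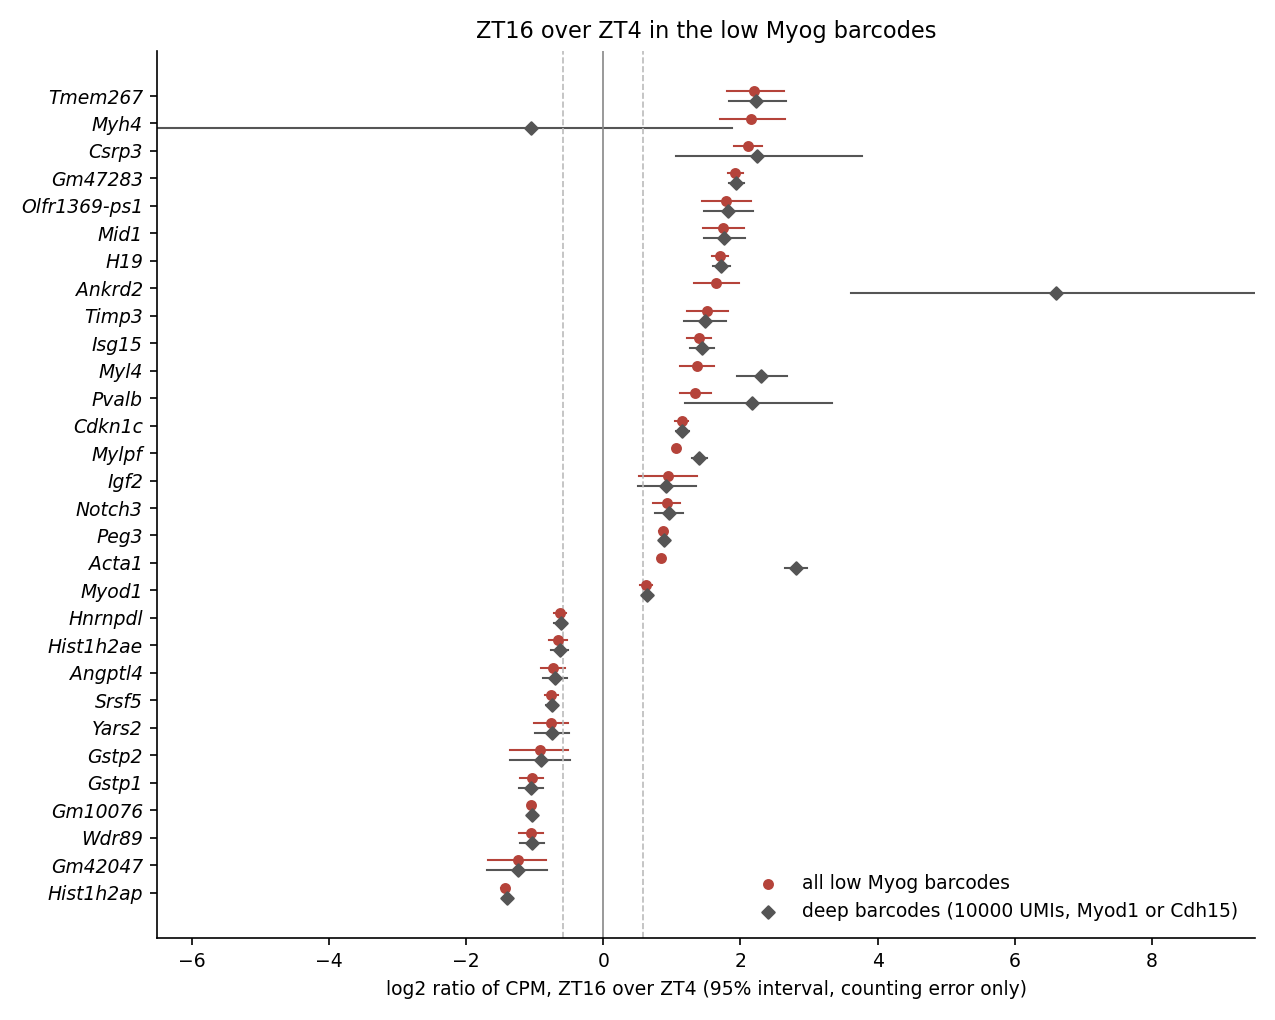
Log2 ratio of CPM (horizontal axis), ZT16 over ZT4, of named genes in the low Myog barcodes, with all 293 and 372 as circles and the deep 223 and 304 as diamonds. Bars are 95% intervals for counting error, those of Myh4 and Ankrd2 run past the axis, and dashed lines mark 1.5-fold. H19, Cdkn1c, Peg3 and Myod1 lie at about the same ratio in both, and Acta1, Ankrd2, Myl4 and Myh4 do not.

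Imprinted genes stood higher at ZT16. Imprinted genes are expressed from 1 parental allele, and several act on growth. Of 15 measured, 9 were higher and 0 lower, with a median of 0.71, and among the deep barcodes the counts were the same. With TMM scaling 8 of the 15 were higher. H19, a long non-coding RNA of muscle development (GRCm38, chr7:142575529-142578143), was at 217 CPM at ZT16 and 66.7 CPM at ZT4, a log2 ratio of 1.70 [1.59, 1.82], and was found in 202 and 208 barcodes. Its ratio was 1.00 in high Myog barcodes, 0.10 in the remaining barcodes and 0.47 in day 0 Pax7 cells. Cdkn1c (GRCm38, chr7:143458339-143461050) was at 233 and 105 CPM, a log2 ratio of 1.14 [1.04, 1.24], against 0.11 in high Myog barcodes, -0.40 in the remaining barcodes and -0.40 in day 0 Pax7 cells. The ratio of H19 and Cdkn1c was thus largest in the low Myog barcodes of these 4 sets. Peg3, a zinc finger gene, was at 485 and 265 CPM, a log2 ratio of 0.87, with 0.60 in high Myog barcodes and -0.54 in the remaining barcodes. Igf2, a fetal growth factor, was at 12.5 and 6.53 CPM, a log2 ratio of 0.94 [0.52, 1.36], and Plagl1, a zinc finger regulator of imprinted genes, at 22.7 and 13.0 CPM. Of 12 genes of the IGF system 7 were higher and 0 lower, with a median of 0.61, with Igf2 and Igf2r counted in both lists, and with TMM scaling 4 of 12 were higher. They included the receptors Igf1r, at 27.7 and 16.9 CPM, and Igf2r, at 29.0 and 18.1 CPM.

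Among myogenic regulators 4 of 18 were higher at ZT16 and 0 lower, and 2 with TMM scaling. Myod1 was at 252 CPM at ZT16 and 164 CPM at ZT4, a log2 ratio of 0.62 [0.53, 0.70] that was 0.50 and short of 1.5-fold with TMM scaling, against 0.09 [0.04, 0.14] in high Myog barcodes. Pax7, at 84.2 and 69.0 CPM, and Myf5, at 78.2 and 65.9 CPM, were short of 1.5-fold. Mymk, at 34.0 and 29.1 CPM, and Mymx, at 11.6 and 12.1 CPM, were too. The receptor Notch3 was at 53.6 and 28.2 CPM, a log2 ratio of 0.92, with 0.66 in high Myog barcodes and -0.47 in day 0 Pax7 cells. No gene of the S phase list (0 of 24, median -0.07), the G2M list (0 of 24, median -0.13) or oxidative phosphorylation (0 of 28, median -0.10) reached 1.5-fold in either direction, and with TMM scaling 1 S phase gene was lower.

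Interferon-induced genes were mostly higher at ZT16. Of 14 measured in the low Myog barcodes 11 were higher and 0 lower, with a median of 0.77, and 9 were higher with TMM scaling. Isg15, a ubiquitin-like protein induced by interferon, was at 84.0 CPM at ZT16 and 31.8 CPM at ZT4, a log2 ratio of 1.40 [1.23, 1.58], with 1.47 in high Myog barcodes and 0.67 in the remaining barcodes. In the remaining barcodes Isg15 was far higher, at 939 and 589 CPM, and the part of free RNA from them was not tested.

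Clock genes were measured on few to moderate counts, between 24 UMIs (Per2) and 255 UMIs (Clock) at ZT16. Of 16 measured 6 were higher at ZT16 and 0 lower, with a median of 0.46, and 4 were higher with TMM scaling. Per2, a clock repressor, had 24 UMIs at ZT16 and 9 at ZT4, 2.62 and 0.683 CPM, a log2 ratio of 1.89 [0.78, 3.23], and its ratio was 1.81 in the remaining barcodes and 2.39 in day 0 Pax7 cells. Nr1d1, the clock repressor REV-ERB alpha, was at 5.88 and 6.08 CPM, a log2 ratio of -0.04 [-0.57, 0.47], against -2.13 [-2.36, -1.91] in day 0 Pax7 cells, at 28.0 CPM at ZT16 and 123 CPM at ZT4. The interval of Nr1d1 in low Myog barcodes does not reach the day 0 value. Per1 was at 8.94 and 4.56 CPM and Usp2, a deubiquitinase under clock control, at 14.2 and 5.92 CPM, with a ratio of 0.24 in high Myog barcodes.

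Some large differences sat in few barcodes. Csrp3, a muscle LIM protein, was at 86.2 CPM at ZT16 and 19.9 CPM at ZT4, with 75.6% of its ZT16 UMIs in 5 barcodes, and its log2 ratio of 2.11 became -1.20 in barcodes with at least 1 UMI of Myod1 or Cdh15. In Ankrd2, 71.8% of the ZT16 UMIs were in 5 barcodes, and in Myl4 49.9% were in 1. In the remaining day 3 barcodes Csrp3 was at 9.80 CPM at ZT16 and 1.52 CPM at ZT4 and Ankrd2 at 3.80 and 0.814 CPM, also higher at ZT16. Myl4 was at 3.11 and 3.24 CPM there. Of 33 sarcomere genes 19 were higher at ZT16 and 0 lower, with a median of 0.67, and 15 were higher with TMM scaling. Acta1 was at 1551 CPM at ZT16 and 868 CPM at ZT4, a log2 ratio of 0.84. In the deep barcodes it was at 218 and 31.2 CPM, with 90.4% of its 1932 UMIs at ZT16 in 2 barcodes, and without the top 2 barcodes of each library it was at 21.1 and 21.4 CPM. Tmem267 had 59.3% and Olfr1369-ps1 60.1% of their ZT16 UMIs in 5 barcodes. Gm47283, at 273 and 71.9 CPM, was spread over 226 and 227 barcodes and had ratios of 1.93 in low Myog, 2.02 in high Myog and 2.03 in the remaining barcodes. Mid1, a ubiquitin ligase, had ratios of 1.75, 1.04 and 1.56 in the same sets.

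The 12 genes named as lower at ZT16 also had negative ratios in the other day 3 sets. Gm10076 was at 1025 CPM at ZT16 and 2125 CPM at ZT4 in low Myog barcodes, a log2 ratio of -1.05, with -1.04 in high Myog barcodes, -1.13 in the remaining barcodes and 0.63 in day 0 Pax7 cells. The histone gene Hist1h2ap was at 292 and 791 CPM, a ratio of -1.44, with -1.24 and -1.43 in the other day 3 sets. Histone genes of this cluster are near-identical copies and their reads can be divided among them. Gstp1, a glutathione transferase, had ratios of -1.04, -1.0 and -0.88 in the same order, and the splicing factor Srsf5 -0.75, -0.76 and -0.62. In day 0 Pax7 cells Srsf5 had a ratio of -1.17 and Gstp1 of 0.27.

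Low Myog barcodes of day 3 were set beside day 0 Pax7 cells of the same ZT, to describe how the injured state differs from rest. The day 0 cells were chosen with Pax7, and were shallower, with medians of 7235 UMIs at ZT16 and 5945 at ZT4. Of 11245 measured genes 2531 (22.5%) were higher and 3073 (27.3%) lower on day 3 in both pairs, together 49.8%, and the all-gene medians were -0.02 at ZT16 and -0.18 at ZT4. TMM scaling shifts the ZT4 ratios by -0.311. Day, library and the 2 selection rules cannot be told apart. As an alternative the day 0 barcodes were chosen by the day 3 rule, which took 946 at ZT16 and 978 at ZT4. Their median mitochondrial share was 0.818% and 0.336%, against 4.43% and 4.44% in the Pax7 cells. They held a median of 1790 and 1370 genes, against 2202 and 1985. The alternative thus compares with another kind of barcode and is no like-for-like check.

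**Figure D5:**
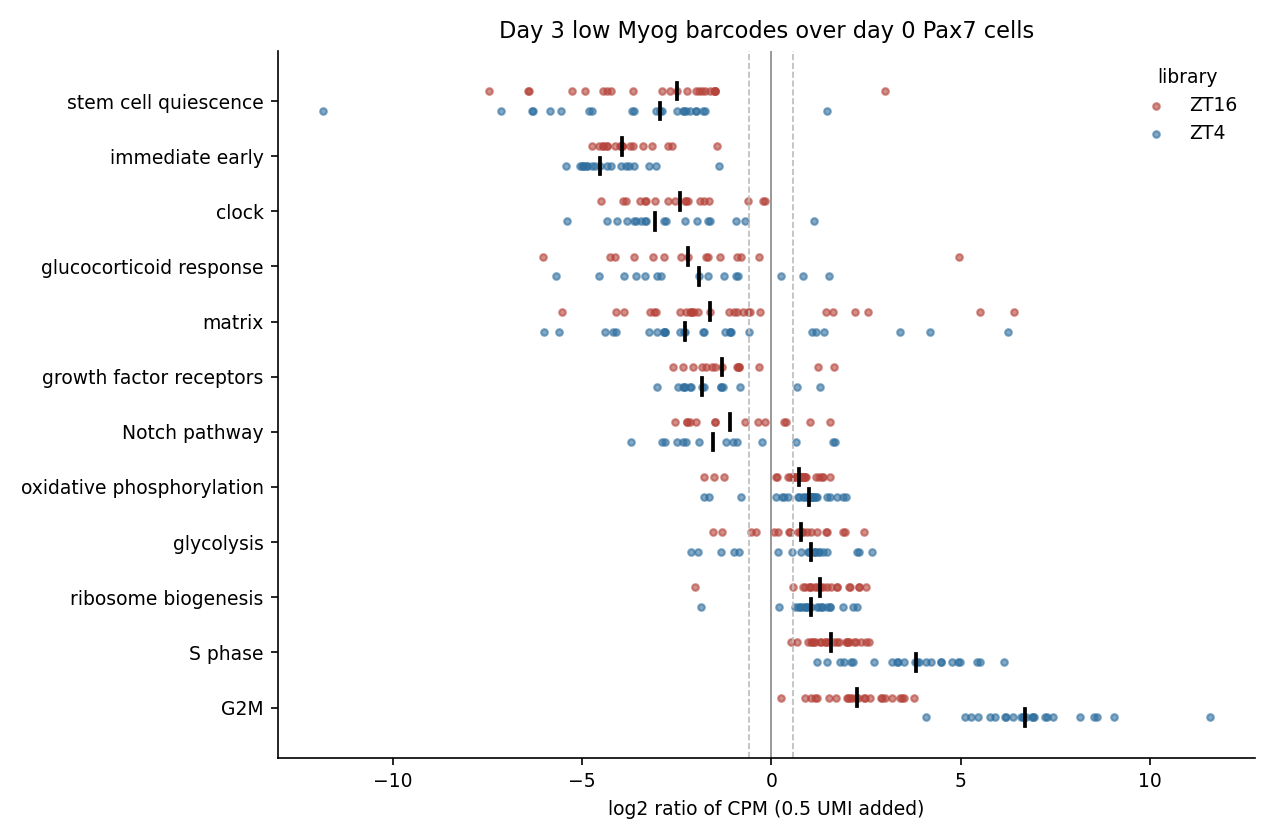
Log2 ratio of CPM (horizontal axis), day 3 low Myog barcodes over day 0 Pax7 cells, for each measured gene of 12 lists (rows), with ZT16 above ZT4 in each row. Black bars are list medians and dashed lines mark 1.5-fold, and genes at 0 UMIs on 1 day are placed by the 0.5 UMI added. Quiescence and immediate early genes lie to the left, S phase and G2M genes to the right and farther so at ZT4.

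Proliferation separated the days. Thinned to 3000 UMIs, 59.0% of the low Myog barcodes at ZT16 and 71.6% at ZT4 were cycling, against 4.42% and 0.251% of the day 0 Pax7 cells. This left out 32 and 31 shallower low Myog barcodes and 13 and 17 day 0 cells. Of 24 genes each, 23 of the S phase list and 23 of the G2M list were higher on day 3 and 0 lower. The medians were 1.58 and 2.26 at ZT16 and 3.82 and 6.69 at ZT4, and the ZT4 median of the G2M list was 6.61 with its 3 genes at 0 UMIs on day 0 set at their bound. Mki67 was at 165 CPM at ZT16 and 134 CPM at ZT4 on day 3, against 50.5 and 1.17 CPM on day 0. At least 3 G2M UMIs were found in 51 of the 963 day 0 cells at ZT16 and 5 of the 815 at ZT4. Cdk6, a kinase of cell cycle entry, was at 109 and 87.8 CPM, against 5.55 and 4.47 CPM. Ribosome biogenesis followed, with 19 of 21 genes higher and 1 lower. Ncl (nucleolin) was at 1941 and 1978 CPM, against 465 and 534 CPM, and Npm1 (nucleophosmin) at 3589 and 3902 CPM, against 857 and 807 CPM.

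Genes of rest were lower. Of 23 quiescence genes 22 were lower and 1, Cdkn1c, higher, with medians of -2.48 at ZT16 and -2.94 at ZT4. Spry1 was at 31.2 and 26.0 CPM on day 3, against 583 and 733 CPM on day 0. Calcr, the calcitonin receptor of resting stem cells, was at 1.96 and 0.759 CPM, against 60.5 and 63.2 CPM. Cd34, a surface sialomucin, was at 2.94 and 3.49 CPM, against 116 and 165 CPM. Pax7, which chose the day 0 cells, was at 84.2 and 69.0 CPM, against 471 and 571 CPM. Myod1 differed by less than 1.5-fold, at 252 and 164 CPM, against 251 and 229 CPM. Of the 12 genes with the firmest lower values, Chodl, a C-type lectin, was at 12.4 and 6.61 CPM, against 1071 and 937 CPM, and Bmp4, a growth factor, at 4.58 and 5.39 CPM, against 814 and 423 CPM. Nppc, a natriuretic peptide, was at 6.97 and 4.02 CPM, against 1123 and 2024 CPM. Nap1l5 had 0 UMIs on day 3 and was at least 86.1-fold lower at ZT16 and at least 260-fold lower at ZT4, against a floor of 3 UMIs per library.

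All 19 immediate early genes were lower, with medians of -3.96 and -4.53. Fos was at 533 CPM at ZT16 and 424 CPM at ZT4, against 11551 and 12439 CPM on day 0, and Btg2, an antiproliferative gene, at 77.6 and 51.9 CPM, against 2066 and 2231 CPM. Of 18 clock genes 15 were lower and 0 higher (medians -2.41 and -3.07), among them Dbp, a clock output factor, at 16.1 and 11.2 CPM, against 178 and 189 CPM. Of 15 growth factor receptors 12 were lower and 2 higher. Fgfr1 was at 56.2 and 42.4 CPM, against 338 and 345 CPM, and Met, the receptor of hepatocyte growth factor, was higher, at 86.5 and 76.0 CPM, against 27.4 and 30.9 CPM. In the Notch pathway 8 of 14 were lower and 2 higher, with Heyl at 62.3 and 44.0 CPM, against 174 and 223 CPM, and Hes1 at 146 and 129 CPM, against 574 and 613 CPM. Heyl and Hes1 in low Myog barcodes thus lay between the day 0 Pax7 cells and the high Myog barcodes. Of 17 imprinted genes 9 were lower and 4 higher, beside 27.3% lower and 22.5% higher over all genes. Their median at ZT16, -1.05, turned to 0.0497 with thinning and to 0.73 with day 0 cells chosen by the day 3 rule. Meg3, a non-coding RNA, was at 30.7 and 21.6 CPM, against 1430 and 1438 CPM, while H19 was at 217 and 66.7 CPM, against 49.2 and 35.6 CPM, and Cdkn1c at 233 and 105 CPM, against 29.1 and 38.3 CPM.

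Several genes were detected on day 3 with 0 UMIs in the day 0 cells. Krt18, a keratin of simple epithelia, had 522 UMIs at ZT16 and 772 at ZT4 in low Myog barcodes and was at least 147-fold and 101-fold higher. Krt8, its partner in filaments, was at least 64.4-fold and 57.8-fold higher, and Hmga2 at least 173-fold and 99.1-fold. Mymk was at least 87.7-fold and 49.9-fold higher, and Mymx at least 29.8-fold and 20.7-fold. Hmga2 was found in 154 and 220 of the low Myog barcodes and Krt18 in 114 and 157. Timp1, an inhibitor of metalloproteinases, was at 149 and 155 CPM, against 1.68 and 1.94 CPM on day 0, a log2 ratio of 6.41 [5.69, 7.38] and 6.25 [5.44, 7.38]. Asns, asparagine synthetase, had 2 UMIs at ZT16 and 1 at ZT4 on day 0 and a log2 ratio of counts per depth of 7.71 [5.85, 10.76] and 8.26 [5.78, 13.57]. Igfbp2, which binds insulin-like growth factors, was at 51.5 and 54.3 CPM, against 0.517 and 0.194 CPM. Fusion and contractile genes went both ways between the days, as did all measured genes, of which 22.5% were higher and 27.3% lower. Of 13 fusion genes 3 were higher and 5 lower (4 and 4 with TMM scaling), of 32 sarcomere and excitation genes 11 were higher and 9 lower, and all 9 measured mature fibre markers were lower. Among those higher, Myof (myoferlin) was at 128 and 101 CPM, against 3.1 and 4.86 CPM, Ttn (titin) at 546 and 349 CPM, against 38.1 and 40.6 CPM, and the receptor subunit Chrnd at 32.4 and 24.9 CPM, against 0.775 and 0.778 CPM.

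Energy metabolism was mostly higher on day 3, with 20 of 28 oxidative phosphorylation genes higher and 3 lower and 11 of 20 glycolysis genes higher and 2 lower. Eno1 was at 472 and 566 CPM, against 86.0 and 88.8 CPM, and Pgk1 at 579 and 658 CPM, against 156 and 138 CPM. The direction of both list medians turned when the day 0 cells were instead chosen by the day 3 rule, to -0.61 and -1.22 for glycolysis and -0.94 and -1.11 for oxidative phosphorylation. That set had fewer genes and a lower mitochondrial share than the Pax7 cells, as given above. Of 27 matrix genes 19 were lower and 6 higher, with Sparc at 365 and 298 CPM, against 1560 and 1452 CPM, and Col3a1 at 126 and 85.2 CPM, against 605 and 594 CPM. The 6 measured fibro-adipogenic markers were lower on day 3 as well, with medians of -4.53 at ZT16 and -4.99 at ZT4. The part of RNA from fibro-adipogenic cells in the day 0 matrix levels was not tested. Of 18 muscle stem cell surface genes 5 were higher on day 3 and 9 lower, with medians of -0.55 at ZT16 and -0.70 at ZT4. Vcam1, an adhesion receptor, was lower, at 122 and 111 CPM, against 412 and 441 CPM. With day 0 cells chosen by the day 3 rule the list median at ZT4 was 0.88 and the ratio of Vcam1 there 0.0568. The higher ones were the receptor subunits Chrna1, Chrnd and Chrng, Cdh2 (N-cadherin) at 67.0 and 65.1 CPM, against 9.04 and 6.22 CPM, and Itga7, the muscle laminin receptor subunit, at 122 and 93.3 CPM, against 54.0 and 59.7 CPM.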

How the data were processed

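The authors deposited raw UMI counts per gene and barcode, 1 matrix per library with 32285 genes, made with Cell Ranger 1.0.0 on mm10 per the submitters' processing notes and with version 6.1.2 per the file headers. The release of the annotation used upstream is not stated there. Gene coordinates are from GENCODE vM21, where 557 of 557 genes looked up were found. There were 0 columns of other samples. The members and gene lists were chosen with earlier results of these data known.

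Counts were summed over the barcodes of a set and divided by the set's total (CPM), with 0.5 UMI added for log2 ratios and exact conditional binomial 95% intervals. Genes with at least 30 UMIs over both sets were measured, and 1.5-fold counted as higher or lower. For each direction 12 genes were named, those with the largest interval bound nearest to 0 among genes with at least 200 UMIs over both sets and a level in the higher set no lower than in all other barcodes of that library. Genes of the rule, mitochondrial genes and ribosomal protein genes were left out, and list members were named beside these. Some genes that the rule or a list holds are counted but not reported here by name. No test was run, as groups have no replicates. Doublets were kept, since scrublet's automatic threshold called 1 of 8172 and 3 of 9488 day 3 barcodes. An alternative removed the 534 and 720 with the highest scores. Thinning, scaling, depth, marker and filter alternatives were also run. The scripts were tested on simulated data. Tools were Python 3.11.15, NumPy 2.4.6, SciPy 1.17.1, pandas 2.3.3, scanpy 1.11.5 and Matplotlib 3.10.9.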

Additional observations from a re-analysis of the deposited data

Results flagged for a closer look

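For 5 genes the ZT16 over ZT4 ratio in the low Myog barcodes had the opposite sign in another set of barcodes, with intervals on opposite sides of 0. These differences were not tested. Igf2 had a log2 ratio of 0.94 in low Myog barcodes and -0.76 in day 0 Pax7 cells. Igfbp4, which binds insulin-like growth factors, had 0.60 in low Myog barcodes, at 17.2 CPM at ZT16 and 11.4 CPM at ZT4, against -0.64 in high Myog barcodes and -1.31 in day 0 Pax7 cells. The histone genes Hist1h2ap and Hist1h2ae had -1.44 and -0.66 in low Myog barcodes, against 7.12 and 4.88 in day 0 Pax7 cells, where 51 of 963 cells at ZT16 and 5 of 815 at ZT4 were cycling. Gm10076 had -1.05 in low Myog barcodes and 0.63 in day 0 Pax7 cells.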

How the results depend on the processing

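No paired test was run, as each group is 1 library, and no replicate could be left out. Low and high Myog barcodes were compared within each of the 2 libraries, and both ratios are given. Counts of higher and lower genes between low and high Myog barcodes became 503 and 285 with barcodes thinned and 2455 and 1192 with a minimum of 1 UMI, and 750 were higher with a minimum of 100 UMIs. Between ZT16 and ZT4, 775 were higher and 320 lower with TMM scaling, 669 and 60 with a minimum of 100 UMIs and 3557 and 2143 with a minimum of 1 UMI. The lower count was 298 with thinned barcodes and 460 with the mean of CPM per barcode. Between day 3 and day 0, thinning gave 1575 higher and 1788 lower, a minimum of 1 UMI gave 5002 lower, and choosing the day 0 cells by the day 3 rule gave 4475 higher.

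The number of low Myog barcodes was 219 at ZT16 and 295 at ZT4 with a marker sum of at least 20, 399 and 496 with at least 5, 241 and 325 with Myod1 or Cdh15 required, 234 and 298 at a mitochondrial limit of 5%, and 223 and 304 when deep. Their cycling share was 87.2% and 88.8%, 57.9% and 63.5%, 85.9% and 86.5%, and 91.5% and 91.4% under the first 3 of these and the deep limit, and 61.4% and 71.8% when cycling needed 10 UMIs.

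Directions turned as follows, and the cause was not tested. Against deep high Myog barcodes, the ratio of the deep low Myog barcodes was -0.33 for Mb at ZT16, and at ZT4 -1.81 for Ckm, -0.50 for Ankrd23 and -0.0946 for Fabp3. The ZT16 over ZT4 ratio was -1.20 for Csrp3 with Myod1 or Cdh15 required and -1.05 for Myh4 in the deep barcodes. Between the days, thinning gave list medians of 0.0497 for imprinted genes at ZT16 and 0.44 for chemokines at ZT4. With day 0 cells chosen by the day 3 rule the medians at ZT4 were 0.0808 for myogenic regulators, 0.88 for surface genes and 0.19 for the Notch pathway, and the ratio of Vcam1 was 0.0568. At ZT16 they were 0.24 for the IGF system and 0.73 for imprinted genes. At ZT16 and ZT4 they were -0.61 and -1.22 for glycolysis and -0.94 and -1.11 for oxidative phosphorylation. With 24 and 9 UMIs, Per2 had the widest interval of the 16 clock genes, 0.78 to 3.23.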

Other observations

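Scx (scleraxis), known as a tendon transcription factor, was found in the low Myog barcodes at 91.1 CPM at ZT16 and 74.4 CPM at ZT4, against 238 and 209 CPM in high Myog barcodes. Hspa5, a chaperone of the endoplasmic reticulum, was at 449 CPM at ZT16 and 281 CPM at ZT4 in low Myog barcodes, a log2 ratio of 0.67, with 0.91 in high Myog barcodes, 0.54 in the remaining day 3 barcodes and -0.05 in day 0 Pax7 cells. Spp1 (osteopontin) was at 381 and 589 CPM, a log2 ratio of -0.63, and had 0 UMIs in the day 0 Pax7 cells, while it was also high in the remaining day 3 barcodes, at 1005 and 1225 CPM.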
